A study of Mus musculus with 9 samples.

Results

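The Eph-ephrin, Slit-Robo and netrin genes examined here are 40 genes for axon guidance receptors, their ligands and draxin, among 44886 genes counted in the striatum of mouse embryos. They were chosen by name with earlier results of these data known, and no threshold on measured values was applied. They comprise 9 EphA and 5 EphB receptors, 5 ephrin-A and 3 ephrin-B ligands, 3 Slits, 4 Robos, 4 netrins or netrin-Gs, 6 receptors that bind netrins, and Draxin. Of the 40 genes, 39 had enough counts to be tested. The exception was Epha1, with 0 to 5 counts per library.

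RNA was taken from the striatum of 9 embryos at E17.5, with 1 library per embryo. By genotype there were 3 embryos each of Control, Islet1Cre;Ebf1fl/- and Dlx5/6::Cre;Ebf1fl/-. Ebf1 is a transcription factor of direct pathway striatal projection neurons (dSPN), and both mutants carry a floxed and a deleted Ebf1 allele with a Cre. Per the study, Islet1Cre recombines in dSPN and cholinergic interneurons, Dlx5/6::Cre recombines in all striatal projection neurons (SPN) and interneurons, and heterozygous embryos served as controls. The labels give C57BL/6 for all samples, whereas the study's methods place the Islet1Cre line on B6D2F1/J. Per the study's methods, the mutants came from crosses of Cre carriers with a deleted Ebf1 allele to Ebf1fl/fl mice. The Cre and Ebf1 allele of each Control embryo are not given in the labels. The comparisons ask how the guidance genes are expressed when Ebf1 is removed from dSPN or from all SPN.

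Eph receptors are membrane receptors for ephrins on neighbouring cells. Ephrin-As are tethered by a lipid anchor and ephrin-Bs span the membrane, and contact commonly repels growth cones and sorts cells, with signals passing in both directions. Slits are secreted repellents read by Robo receptors. Netrins attract axons through Dcc and repel them through Unc5 receptors. In the forebrain these systems guide striatal, cortical and thalamic axons along the internal capsule, and ephrins take part in the sorting of striosome and matrix cells.

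Counts on genes totalled 16.5 to 41.5 M per library. Markers of SPN were present in all 9 libraries, with summed normalized counts of 104430.0 to 130860.0, where a normalized count is the count divided by the library's DESeq2 size factor. Of these 12 markers, Foxp1 was called lower in Dlx5/6::Cre;Ebf1fl/- (log2 fold change -0.53, adjusted p = 0.0305 by edgeR) and none was called in Islet1Cre;Ebf1fl/-. Among the uncalled ones the log2 fold changes in Dlx5/6::Cre;Ebf1fl/- ran from -1.12 for Tac1 to 0.53 for Drd1, and the part of SPN number or identity in the values of the guidance genes was not tested. Normalized counts over the whole Ebf1 gene were 7945 to 14208 in Control, 13210.0 to 15343 in the Islet1Cre libraries and 11774 to 15312 in the Dlx5/6::Cre libraries. They were not lower in the mutants, and gene counts cannot separate a deleted part from the rest, so they do not check the genotype and the groups below are those of the labels. The study's methods state that the embryos were genotyped by PCR. By immunostaining, the study reports Ebf1 protein as absent from the striatum of both mutants at E17.5. Counts of both Xist and Y-linked genes occurred in 2 libraries, Control 3 and Islet1Cre;Ebf1fl/- 3. Control 2 had Y-linked counts with hardly any Xist, and the other 6 libraries, among them all of Dlx5/6::Cre;Ebf1fl/-, had Xist with hardly any Y-linked counts. Sex was thus not balanced between the groups, and its part in the values was not tested. Of the guidance genes, Efnb1 lies on the X chromosome. Codes on the samples start with IE in 2 Control and all 3 Islet1Cre libraries, and with D in 1 Control and all 3 Dlx5/6::Cre libraries, and the labels do not say what the codes mean. These are bulk samples, in which fewer cells of a type and less RNA per cell cannot be told apart.

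In Control striatum the most abundant guidance transcript was that of Efnb3, a transmembrane ephrin, followed by Epha4, a receptor that binds ephrins of both classes, and Ephb1. Levels are normalized counts per kilobase of merged exon, so that genes of different length can be compared. The level of Efnb3 was 1506, 1553 and 1614 in the 3 Control samples, all above the 1046, 1418 and 1307 of Epha4. Ephb1 was at 1131, 1248 and 1216, within the range of Epha4. The next in order were Draxin at 992.5 ± 56.3, Robo2 at 960.3 ± 131, Efna2 at 845.2 ± 22.96, Robo1 at 797.5 ± 171 and Epha8 at 792.2 ± 107 (SD, n = 3). From Draxin to Epha8 each overlapped the next, whereas Draxin, at most at 1056, lay below every value of Ephb1. Of the 40 genes, 17 lay above the median level of 147.0 of the genes tested. In the order of levels, 30 of 39 neighbouring pairs overlapped in their Control samples.

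**Figure D1:**
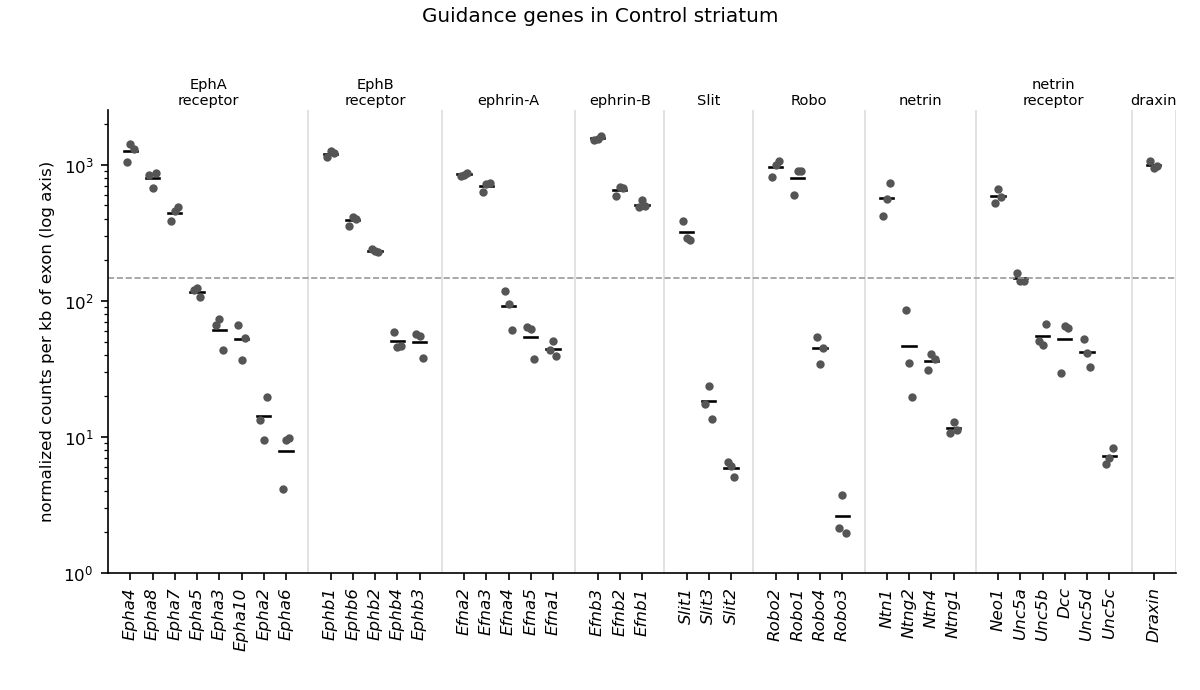
Level of each tested guidance gene in the 3 Control samples, in normalized counts per kilobase of exon on a log axis, grouped by role and ordered by level. Points are samples, bars are means, and the dashed line is the median of the genes tested (147.0). Efnb3, Epha4 and Ephb1 are highest, and Slit2 and Robo3 are lowest.

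Each family was dominated by 1 or 2 members. Slit1 held 92.8% ± 1.95 of the summed Slit level in Control, with Slit3 at 18.2 ± 5.15 and Slit2 at 5.90 ± 0.757 (SD, n = 3). Ntn1, a secreted netrin, held 84.8% ± 7.45 of the netrin level, and Ntng2, a membrane-anchored netrin-G, followed at 46.7 ± 34.6. Among the receptors that bind netrins, Neo1 (neogenin) held 65.7% ± 2.66, ahead of Unc5a at 146.8 ± 12.1. Dcc itself was at 29.5, 64.6 and 62.8. Efna2 and Efna3 led the ephrin-As at 845.2 ± 22.96 and 693.8 ± 54.5. Robo1 and Robo2 carried the Robo level, whereas Robo4, known from endothelium, was at 44.6 ± 9.96 and Robo3, known from commissural axons, at 2.59 ± 0.959. The order depends on the length used: over the longest protein-coding transcript in place of merged exons, a choice made after seeing the data, Robo2 ranked 1 and Efnb3 ranked 5.

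Compared with Control, 2 guidance genes were higher in the libraries labelled Islet1Cre;Ebf1fl/- and none was lower. Both, Epha5 and Ephb6, encode Eph receptors. In the libraries labelled Dlx5/6::Cre;Ebf1fl/- 3 were higher, again Epha5 and Ephb6 together with Slit2, and 1 was lower, Draxin. These calls are at an adjusted p below 0.05 by edgeR's quasi-likelihood test with Benjamini-Hochberg adjustment over 16368 genes. Among all genes the test called 0.971% in the first comparison, against 2 of 39 guidance genes, and 2.39% in the second, against 4 of 39. By direction these were 0.47% higher and 0.501% lower in the first, and 1.05% higher and 1.34% lower in the second. Both comparisons use the same 3 Control embryos, and the list was chosen with earlier results of these data known. At an unadjusted p below 0.05 there were 11 guidance genes in the first, 8 higher and 3 lower, against 7.93% of all genes (3.97% higher and 3.96% lower). In the second there were 18, 14 higher and 4 lower, against 15.5% (7.91% higher and 7.62% lower).

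As a description of the list, the median absolute log2 fold change was 0.24 over the 39 genes and 0.11 over all genes tested for Islet1Cre;Ebf1fl/-, and 0.34 and 0.15 for Dlx5/6::Cre;Ebf1fl/-. The median signed change was 0.04 and 0.24 for the guidance genes, and 0.00 and 0.01 over all genes. All 3 embryos lay outside the Control range for 14 guidance genes in Islet1Cre;Ebf1fl/-, 11 above and 3 below, where 15.1% of all genes did (7.83% above and 7.28% below). For Dlx5/6::Cre;Ebf1fl/- there were 17, 14 above and 3 below, where 20.9% of all genes did (9.63% above and 11.3% below).

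**Figure D2:**
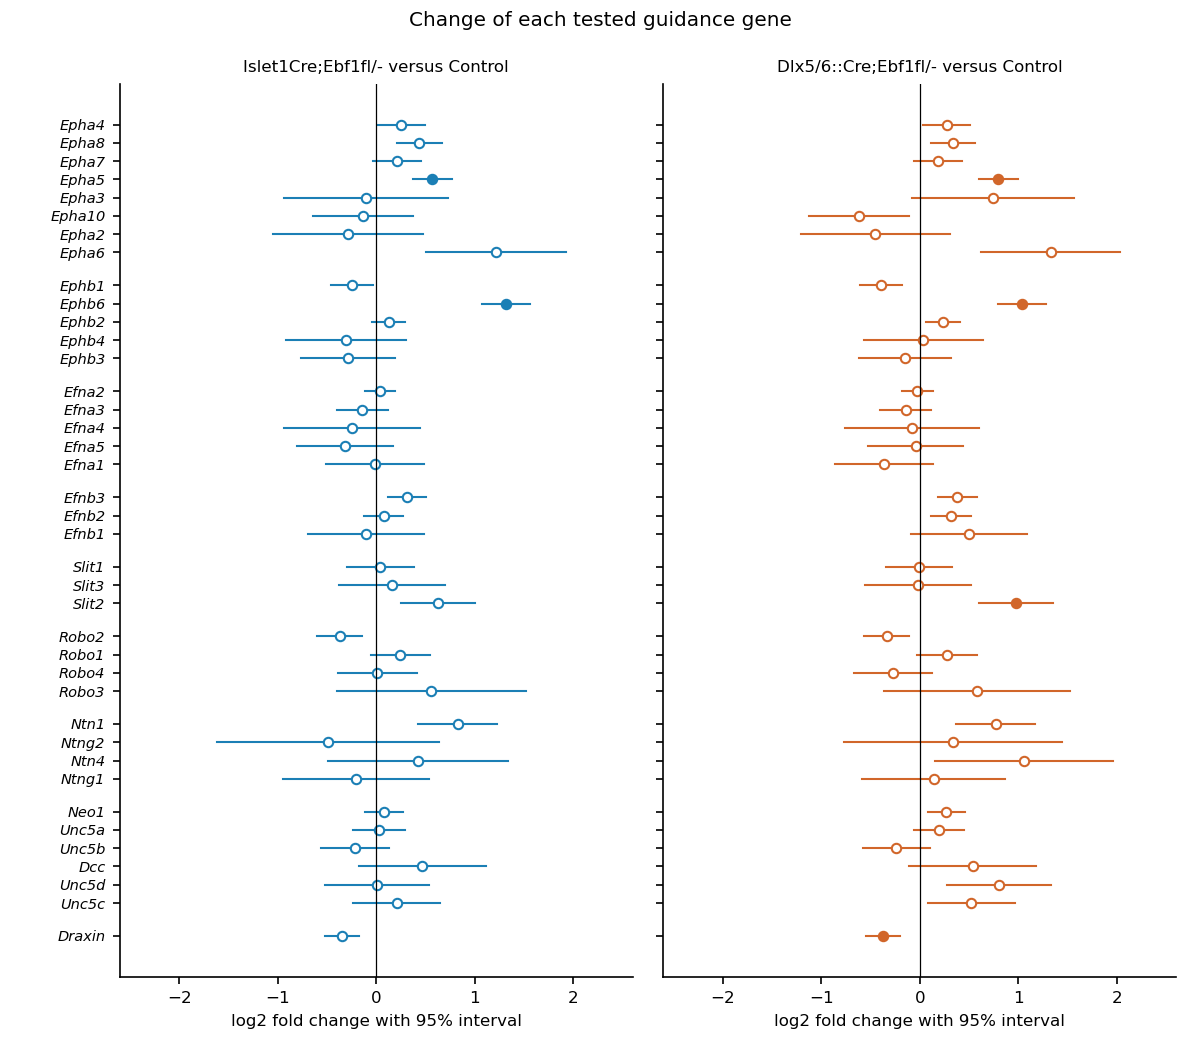
Log2 fold change against Control of the 39 tested guidance genes, with 95% intervals from edgeR, for Islet1Cre;Ebf1fl/- (left) and Dlx5/6::Cre;Ebf1fl/- (right), in the order of roles and levels of the plot of Control levels. Filled points passed an adjusted p of 0.05: Epha5 and Ephb6 on the left, and Epha5, Ephb6, Slit2 and Draxin on the right.

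The 4 genes called are shown with the sequence just upstream of their start, the part of the gene nearest to the control of its transcription. The sequences are those of RefSeq on GRCm38.p6, read 5′ to 3′ on the gene's own strand up to the last base before the first annotated start in RefSeq or GENCODE. Capitals mark the letters TATAAA, the core of a TATA box.
Epha5, chr5:84417383-84417632, minus strand: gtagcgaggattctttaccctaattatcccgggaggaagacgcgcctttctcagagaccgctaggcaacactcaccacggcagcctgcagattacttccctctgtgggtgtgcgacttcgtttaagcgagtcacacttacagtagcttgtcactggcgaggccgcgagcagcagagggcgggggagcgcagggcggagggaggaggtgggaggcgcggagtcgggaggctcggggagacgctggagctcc
Ephb6, chr6:41605261-41605481, plus strand: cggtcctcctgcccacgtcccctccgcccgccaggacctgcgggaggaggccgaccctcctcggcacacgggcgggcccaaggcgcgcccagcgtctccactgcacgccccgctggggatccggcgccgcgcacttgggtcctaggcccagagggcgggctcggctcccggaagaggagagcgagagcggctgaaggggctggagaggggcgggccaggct
Slit2, chr5:47982905-47983137, plus strand: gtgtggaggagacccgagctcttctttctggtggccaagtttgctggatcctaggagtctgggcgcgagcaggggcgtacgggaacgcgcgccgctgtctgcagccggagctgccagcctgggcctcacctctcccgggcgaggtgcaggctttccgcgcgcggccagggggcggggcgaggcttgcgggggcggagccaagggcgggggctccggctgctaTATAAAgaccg
Draxin, chr4:148130699-148130948, minus strand: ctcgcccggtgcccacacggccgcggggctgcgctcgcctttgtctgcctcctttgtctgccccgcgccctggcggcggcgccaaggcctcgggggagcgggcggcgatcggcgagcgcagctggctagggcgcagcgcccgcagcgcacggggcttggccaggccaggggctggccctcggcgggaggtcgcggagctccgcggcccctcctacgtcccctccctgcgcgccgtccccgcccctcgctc

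All 4 windows are rich in G and C, at 62.4% for Epha5, 76.5% for Ephb6, 70.4% for Slit2 and 79.6% for Draxin, and hold 20, 24, 23 and 36 CpG. TATAAA, on either strand, was found in 12.4% of the 32851 promoters of the table over 250 bases, and among these 4 windows in that of Slit2. Early B-cell factors, the family of Ebf1, bind a palindrome with the core CCCNNGGG, which reads the same on both strands. None of the 4 windows held this core, and 11.8% of all promoters did. Promoters were listed for 35 of the 40 guidance genes, with 40 promoters between them. The core was found in at least 1 promoter of 8 genes (Efna1, Efna2, Ephb2, Ntn4, Robo2, Robo3, Slit3 and Unc5a). This count is by gene and the 11.8% is by promoter, so they cannot be compared directly. A match is a description of the letters in a short window, and its absence says only that they are not there.

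Ephb6 (ENSMUSG00000029869, chromosome 6, 41605482 to 41620509, plus strand) showed the larger rise of the pair called in both mutants. It encodes an Eph receptor whose kinase domain is inactive. The normalized count was 1327, 1564 and 1502 in Control, 3608, 4023 and 3315 in Islet1Cre;Ebf1fl/-, and 2560.4, 3261 and 3209 in Dlx5/6::Cre;Ebf1fl/-. All 6 mutant embryos lay above every Control, with the lowest mutant value in Dlx5/6::Cre;Ebf1fl/- 1. The log2 fold change was 1.32 ± 0.11 (SE, n = 3 per group, adjusted p = 0.00143 by edgeR) in Islet1Cre;Ebf1fl/- and 1.04 ± 0.11 (adjusted p = 0.00161 by edgeR) in Dlx5/6::Cre;Ebf1fl/-. Within embryos of the same code prefix it was 1.33 (adjusted p = 0.00662 by edgeR) and 1.00 (adjusted p = 0.0765 by edgeR, against the single Control of prefix D), so the latter call was lost there.

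Epha5 (ENSMUSG00000029245, chromosome 5, 84054761 to 84417382, minus strand), a receptor for ephrin-As, rose in both. Its normalized count was 1991, 2070.2 and 1776 in Control, 2957, 2893 and 2829.6 in Islet1Cre;Ebf1fl/-, and 3787, 3119 and 3244 in Dlx5/6::Cre;Ebf1fl/-. The mutants lay above every Control, and the 3 Dlx5/6::Cre libraries above the 3 Islet1Cre libraries. The log2 fold change was 0.57 ± 0.09 (SE, adjusted p = 0.019 by edgeR) and 0.80 ± 0.09 (adjusted p = 0.00194 by edgeR). For Islet1Cre;Ebf1fl/- the call was lost without Control 1, Control 3, Islet1Cre;Ebf1fl/- 1 or Islet1Cre;Ebf1fl/- 2, where the log2 fold change stayed at 0.51 to 0.62 over all 9 omissions and adjusted p reached 0.0966 by edgeR. Within embryos of the same code prefix the log2 fold change was 0.51 (adjusted p = 0.0734 by edgeR) and 0.93 (adjusted p = 0.0328 by edgeR). Without both libraries that held Xist and Y-linked counts, an omission chosen after seeing the data, it was 0.53 (adjusted p = 0.154 by edgeR) and 0.73 (adjusted p = 0.0192 by edgeR).

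The remaining EphA receptors had no call in either comparison. Epha6 had a low count, 21.7, 49.8 and 51.9 in Control, 81.5, 112.1 and 93.1 in Islet1Cre;Ebf1fl/-, and 78.8, 114.7 and 116.6 in Dlx5/6::Cre;Ebf1fl/-. No mutant embryo fell in the Control range, and the log2 fold change was 1.22 ± 0.32 and 1.33 ± 0.32 (adjusted p = 0.15 and 0.061 by edgeR). Epha8 was at 3940.1, 3157 and 4104 in Control, at 5099, 5421 and 4669 in Islet1Cre;Ebf1fl/-, and at 4964, 4584 and 4628 in Dlx5/6::Cre;Ebf1fl/-, again without overlap. Its log2 fold change was 0.44 ± 0.10 and 0.34 ± 0.10 (adjusted p = 0.0952 and 0.132 by edgeR). Epha4, the most abundant EphA receptor, had a log2 fold change of 0.25 ± 0.11 and 0.27 ± 0.11 (adjusted p = 0.573 and 0.255 by edgeR). Epha7 had 0.21 ± 0.11 and 0.19 ± 0.11, and Epha2 had -0.28 ± 0.34 and -0.45 ± 0.34 (adjusted p of 0.436 to 0.999 by edgeR). Epha10 was the EphA receptor with the most negative value, -0.61 ± 0.23 in Dlx5/6::Cre;Ebf1fl/- (adjusted p = 0.23 by edgeR), and its samples overlapped Control.

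**Figure D3:**
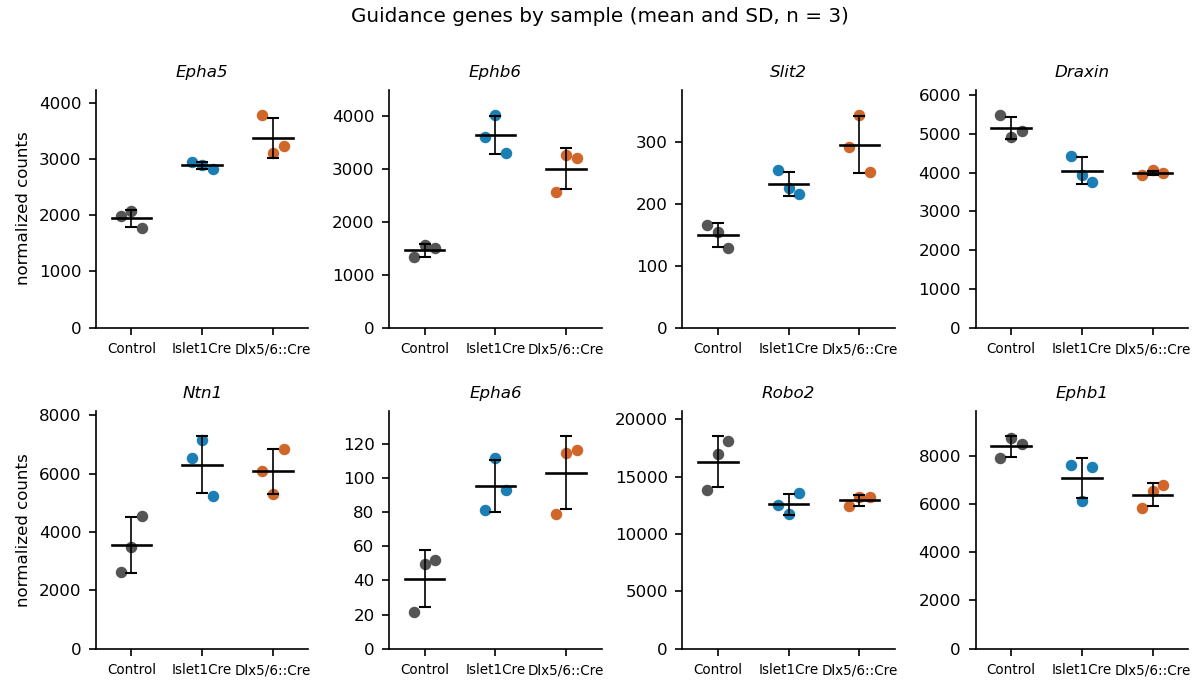
Normalized counts of 8 guidance genes in each sample (points, 3 per group), with the mean and SD; the axes start at 0. The mutant samples of each gene lie on 1 side of the 3 Control samples, above for Epha5, Ephb6, Slit2, Ntn1 and Epha6 and below for Draxin, Robo2 and Ephb1.

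Ephb1 and Ephb2 are the EphB receptors best known from axon guidance at the midline. Ephb1 was at 7922, 8739 and 8511 in Control, at 7609.7, 6117 and 7531 in Islet1Cre;Ebf1fl/-, and at 5846, 6528 and 6801 in Dlx5/6::Cre;Ebf1fl/-. Every mutant value was below every Control value, and the log2 fold change was -0.25 ± 0.10 and -0.39 ± 0.10 (adjusted p = 0.499 and 0.0723 by edgeR). Of its sequence windows of 75 bases, 1.19% also occurred in other genes, the most among the EphB receptors. Ephb2 had a log2 fold change of 0.12 ± 0.08 and 0.24 ± 0.08 (adjusted p = 0.868 and 0.164 by edgeR). Ephb3 and Ephb4 had values between -0.31 and 0.04, all with an adjusted p of at least 0.785 by edgeR.

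The sum of EphA levels was higher in each mutant embryo than in each Control, 2741 ± 188 in Control, 3394 ± 101 in Islet1Cre;Ebf1fl/- and 3395 ± 73.6 in Dlx5/6::Cre;Ebf1fl/- (SD, n = 3; exact permutation p = 0.1 for each, the smallest that 3 against 3 can give). Within the EphB receptors the share of Ephb6 was 20.2% ± 0.930 in Control, 41.8% ± 4.30 in Islet1Cre;Ebf1fl/- and 38.2% ± 2.93 in Dlx5/6::Cre;Ebf1fl/-. That of Ephb1 was 62.4% ± 0.830, 43.7% ± 4.79 and 43.8% ± 0.772 (both shares exact permutation p = 0.1). These sums and shares were chosen after the values of single genes were seen, and they restate those genes on a scale per length.

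**Figure D4:**
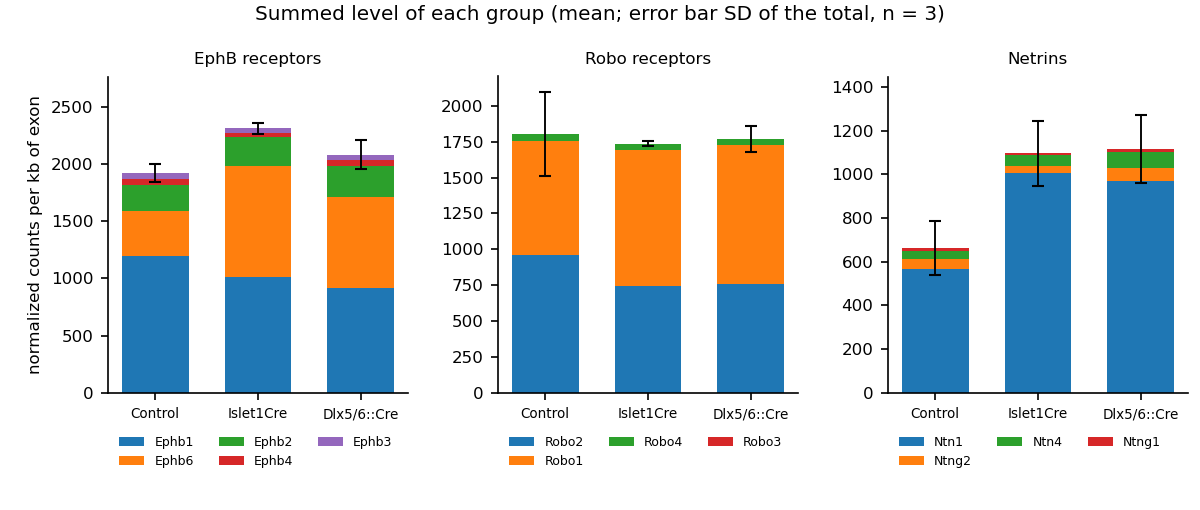
Summed level of the EphB receptors, Robos and netrins in normalized counts per kilobase of exon, stacked by gene (means of 3 samples per group; error bars are the SD of the sum). Ephb6 takes a larger part of the EphB level in both mutants (20.2% in Control, 41.8% and 38.2%), Robo2 a smaller part of the Robo level (53.4%, 42.7% and 43.0%), and the netrin level is higher (661.6, 1097 and 1117).

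None of the ephrins was called. The ephrin-As, ligands of the EphA receptors, had log2 fold changes of -0.32 to 0.04 in Islet1Cre;Ebf1fl/- and -0.36 to -0.02 in Dlx5/6::Cre;Ebf1fl/-, and the lowest adjusted p was 0.911 and 0.47 by edgeR. Efna2 was the most precise of them, at 0.04 (95% interval -0.12 to 0.19) and -0.02 (-0.18 to 0.13). Of the transmembrane ephrin-Bs, Efnb2 and Efnb3 had positive values in Dlx5/6::Cre;Ebf1fl/-, and Efnb1 had 0.50 with all libraries and -0.02 without Dlx5/6::Cre;Ebf1fl/- 1. Efnb3 was at 4793, 4944 and 5136 in Control, 6711, 6076 and 5700.3 in Islet1Cre;Ebf1fl/-, and 5747, 6752 and 6890.5 in Dlx5/6::Cre;Ebf1fl/-. No mutant value overlapped Control, and the log2 fold change was 0.31 ± 0.09 and 0.38 ± 0.09 (adjusted p = 0.203 and 0.0524 by edgeR). Efnb2 had 0.07 ± 0.09 and 0.32 ± 0.09 (adjusted p = 0.999 and 0.115 by edgeR), with the Dlx5/6::Cre samples above Control and the Islet1Cre samples overlapping it.

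Slit2 (ENSMUSG00000031558, chromosome 5, 47983138 to 48307733, plus strand), a secreted repellent that was the least abundant Slit, was higher in Dlx5/6::Cre;Ebf1fl/-. Its normalized count was 166.4, 155.2 and 128.9 in Control, 254.2, 226.3 and 216.6 in Islet1Cre;Ebf1fl/-, and 291.4, 343.3 and 251.9 in Dlx5/6::Cre;Ebf1fl/-. The 6 mutant embryos lay above the 3 Controls. The log2 fold change was 0.97 ± 0.17 (SE, adjusted p = 0.0158 by edgeR) in Dlx5/6::Cre;Ebf1fl/- and 0.63 ± 0.17 (adjusted p = 0.176 by edgeR) in Islet1Cre;Ebf1fl/-. The call was lost without Control 3 or Dlx5/6::Cre;Ebf1fl/- 2, at 0.85 to 1.07 over all 9 omissions and with adjusted p up to 0.0725 by edgeR. It was also lost within the code prefix (1.20, adjusted p = 0.132 by edgeR), without both libraries that held Xist and Y-linked counts (0.87, adjusted p = 0.128 by edgeR), and with only the 6 samples compared in the fit (0.97, adjusted p = 0.063 by edgeR). Slit1, which makes up most of the Slit RNA, had 0.04 ± 0.15 and -0.01 ± 0.15, and Slit3 had 0.16 ± 0.24 and -0.02 ± 0.24, with adjusted p of 0.984 to 0.999 by edgeR.

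The Slit receptors Robo1 and Robo2 had log2 fold changes of opposite sign, and neither was called. Robo2 was at 13833, 16976 and 18118 in Control, 12572, 11722 and 13546.5 in Islet1Cre;Ebf1fl/-, and 12403, 13204 and 13189.9 in Dlx5/6::Cre;Ebf1fl/-. All 6 mutant values were below the lowest Control, Control 1, by a margin smaller than the spread of the Controls, and the log2 fold change was -0.37 ± 0.10 and -0.34 ± 0.10 (adjusted p = 0.181 and 0.142 by edgeR). Robo1 was at 9902, 14800.1 and 14799 in Control and at 15071 to 17472 in the mutants, with 0.25 ± 0.14 and 0.28 ± 0.14 (adjusted p = 0.798 and 0.356 by edgeR). Control 1 was the lowest Control for both genes. The share of Robo2 in the Robo level was 55.4%, 51.7% and 53.1% in Control, 42.8%, 39.98% and 45.3% in Islet1Cre;Ebf1fl/-, and 43.1%, 44.5% and 41.5% in Dlx5/6::Cre;Ebf1fl/-. The groups did not overlap (exact permutation p = 0.1 for each mutant, the smallest 3 against 3 can give). This share was formed after the values of Robo1 and Robo2 were seen and restates them. The sum of Robo levels was 1805 ± 292, 1738 ± 18.4 and 1771 ± 91.5 (exact permutation p = 0.9 for each). Robo3 and Robo4 overlapped Control in both.

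Ntn1 (ENSMUSG00000020902) encodes the main secreted netrin, and in neither comparison did it reach the threshold. Its normalized count was 2642, 3476 and 4563 in Control, 6549.6, 7141 and 5239 in Islet1Cre;Ebf1fl/-, and 6079, 5311 and 6856 in Dlx5/6::Cre;Ebf1fl/-. Every mutant embryo lay above the highest Control, Control 3, and the Controls themselves spread from 2642 to 4563. The log2 fold change was 0.82 ± 0.18 and 0.77 ± 0.18 (adjusted p = 0.0762 and 0.0561 by edgeR). Without Control 3 it was 1.05 (adjusted p = 0.0445 by edgeR) and 0.99 (adjusted p = 0.0242 by edgeR). Within the code prefix, where Control 3 is the only Control for Dlx5/6::Cre;Ebf1fl/-, it was 1.04 (adjusted p = 0.044 by edgeR) and 0.41 (adjusted p = 0.782 by edgeR). Without both libraries that held Xist and Y-linked counts, an omission chosen after seeing the data, Ntn1 was called higher in both comparisons. The netrin-Gs Ntng1 and Ntng2 had log2 fold changes between -0.49 and 0.34, all with an adjusted p of at least 0.793 by edgeR.

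Receptors that bind netrins were not called. Neo1 was at 4558, 5747 and 4993 in Control, 5207, 5412 and 5573 in Islet1Cre;Ebf1fl/-, and 6004, 6291 and 6181 in Dlx5/6::Cre;Ebf1fl/-. The Dlx5/6::Cre samples lay above Control and the Islet1Cre samples within it, and the log2 fold change was 0.27 ± 0.09 and 0.08 ± 0.09 in that order (adjusted p = 0.155 and 0.999 by edgeR). Unc5c, a repulsive receptor, had 0.53 ± 0.20 in Dlx5/6::Cre;Ebf1fl/- and 0.21 ± 0.20 in Islet1Cre;Ebf1fl/- (adjusted p = 0.234 and 0.986 by edgeR). Dcc was at 388.9, 850.1 and 827.3 in Control and at 773.2 to 1272 in the mutants, so its groups overlapped, and its log2 fold change was 0.47 ± 0.29 and 0.54 ± 0.29 (adjusted p = 0.87 and 0.4 by edgeR). Unc5a and Unc5b had log2 fold changes between -0.24 and 0.20, all with an adjusted p of at least 0.446 by edgeR.

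Draxin (ENSMUSG00000029005, chromosome 4, 148098437 to 148130698, minus strand), a secreted guidance protein that binds Dcc, was the only guidance gene called lower. Ephb1 and Robo2 also lay below every Control in both mutants, without a call. The values that follow are those of Draxin. Its normalized count was 5489, 4925 and 5069.5 in Control, 4446, 3945 and 3769 in Islet1Cre;Ebf1fl/-, and 3953, 4061 and 3989 in Dlx5/6::Cre;Ebf1fl/-. The mutants lay below every Control, and the Dlx5/6::Cre samples spread little, at 4001 ± 55.1 (SD, n = 3). The log2 fold change was -0.37 ± 0.08 (SE, adjusted p = 0.0354 by edgeR) in Dlx5/6::Cre;Ebf1fl/- and -0.35 ± 0.08 (adjusted p = 0.0783 by edgeR) in Islet1Cre;Ebf1fl/-. The call is a narrow one. It was kept in 2 of 9 fits that left out 1 library (Dlx5/6::Cre;Ebf1fl/- 1 or Islet1Cre;Ebf1fl/- 1) and lost without any of the other 7, at -0.40 to -0.32 and adjusted p up to 0.126 by edgeR. It was also lost within the code prefix (-0.34, adjusted p = 0.456 by edgeR), without both libraries that held Xist and Y-linked counts (-0.38, adjusted p = 0.159 by edgeR), and with only the 6 samples compared in the fit (-0.37, adjusted p = 0.0589 by edgeR).

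Several guidance genes were high in 1 library, Dlx5/6::Cre;Ebf1fl/- 1. It had the highest value of the 9 libraries for 14 of the 39 genes, against 22.9% of all genes tested. At the low end, Control 1 had the lowest value for 12 of the 39 genes and Control 3 for 11, where 18.2% and 9.0% of all genes did. Control 1 was lowest for Ephb6, and Control 3 for Epha5 and Slit2. Ntn4, a laminin-binding netrin, was at 531.1, 152.1 and 165.5 in the 3 Dlx5/6::Cre libraries. It was at 115.8, 151.1 and 138.5 in Control and at 174.0, 175.2 and 196.9 in Islet1Cre;Ebf1fl/-. Every mutant value of Ntn4 was thus above every Control value, and its log2 fold change in Islet1Cre;Ebf1fl/- was 0.42 ± 0.41 (adjusted p = 0.985 by edgeR). Epha3 was at 1536, 637.4 and 498.2 in the Dlx5/6::Cre libraries, and at 378.0 to 632.9 in the other 6. Efnb1, an ephrin known from neural progenitors, was at 3992, 1694 and 1772, and at 1541 to 1880 in the other 6. Unc5d was at 954.2, 575.5 and 500.6, and at 300.1 to 480.3 in the other 6, so the other Dlx5/6::Cre libraries were also above Control, as for Ntn4.

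**Figure D5:**
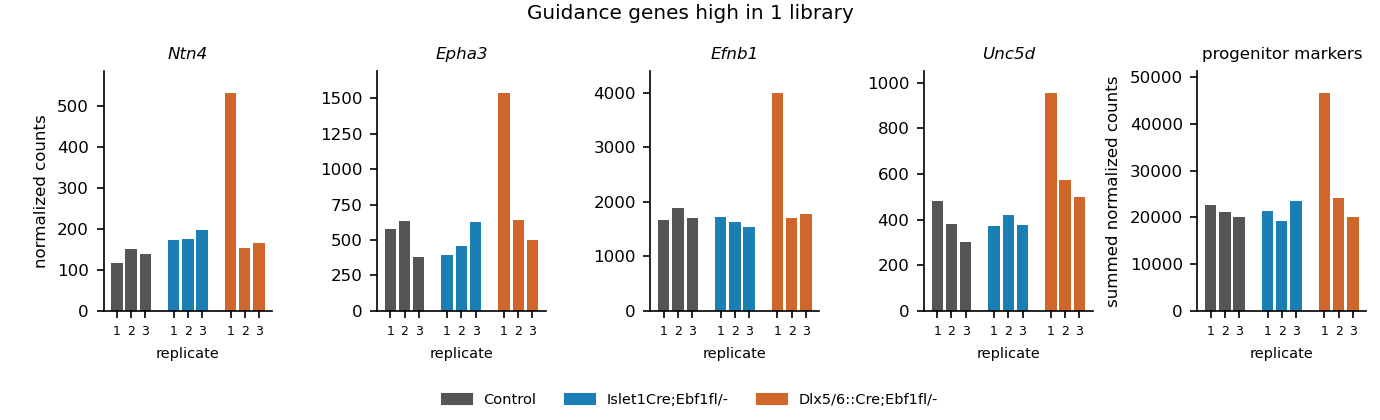
Normalized counts of Ntn4, Epha3, Efnb1 and Unc5d, and the sum of 8 markers of dividing progenitors or radial glia, in each of the 9 libraries (bars, from 0; the number is the replicate). Dlx5/6::Cre;Ebf1fl/- 1 is highest in each panel; Ntn4 is at 531.1 there and at most at 196.9 in the others.

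In the same library the sum of 8 markers of dividing progenitors or radial glia was 46582, against 19198 to 24104 in the other 8, and the sum of 8 markers of cortical excitatory neurons was 6362, against 1019 to 3138. The cortical sum was 1081 to 2565 in Control, 1019 to 1954 in the Islet1Cre libraries and 2689.9 to 6362 in the Dlx5/6::Cre libraries, so all 3 of the latter were above the other 6. None of these markers was at 0 in all libraries, and none passed an adjusted p of 0.05 by edgeR in any comparison. Without this library the log2 fold change in Dlx5/6::Cre;Ebf1fl/- went from 1.06 to 0.23 for Ntn4, from 0.75 to 0.10 for Epha3, from 0.50 to -0.02 for Efnb1 and from 0.80 to 0.47 for Unc5d. None of these was called either way (adjusted p of 0.127 to 0.392 with it and 0.179 to 0.939 without it by edgeR). The part of progenitor or cortical RNA in these or other values of the Dlx5/6::Cre libraries was not tested. Without it Epha5, Ephb6, Slit2 and Draxin kept their calls in Dlx5/6::Cre;Ebf1fl/-, and Efnb3 and Epha6 were called as well (0.46 and 1.49, adjusted p = 0.0117 and 0.0226 by edgeR). In Islet1Cre;Ebf1fl/-, which shares the estimate of the spread, Ntn1, Epha8 and Draxin were then called in addition (0.82, 0.44 and -0.35, adjusted p = 0.037, 0.0445 and 0.042 by edgeR).

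Between the mutants no guidance gene was called, and neither was any other gene that passed the filter on low counts by edgeR, 0.0% of 16368. At an unadjusted p below 0.05, 7 guidance genes differed, 6 higher and 1 lower in Dlx5/6::Cre;Ebf1fl/-, against 5.16% of all genes (2.41% higher and 2.74% lower). The 6 were Unc5d (0.80 ± 0.24), Efnb2 (0.24 ± 0.09), Epha5 (0.23 ± 0.09), Efnb1 (0.61 ± 0.27), Epha3 (0.85 ± 0.38) and Neo1 (0.19 ± 0.09), and the 1 was Ephb6 (-0.28 ± 0.11), each with an adjusted p of 0.868 by edgeR. Without Dlx5/6::Cre;Ebf1fl/- 1 the difference was 0.09 for Efnb1, 0.21 for Epha3 and 0.46 for Unc5d, and of the 7 genes only Unc5d kept an unadjusted p below 0.05. For Slit2, called in 1 comparison with Control and not in the other, the difference between the mutants was 0.35 ± 0.17 (adjusted p = 0.868 by edgeR), and for Draxin it was -0.02 ± 0.08 (adjusted p = 0.982 by edgeR). The mutants differ in code prefix as well as in Cre, and these cannot be told apart. Between the mutants 17 genes were called by DESeq2's Wald test and 13 by edgeR without a filter on low counts, none of them a guidance gene.

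Beside these ligands and receptors, 70 genes for effectors and partners of the 3 systems were listed, and 67 were tested. None was called in Islet1Cre;Ebf1fl/-, where 0.971% of all genes were. An unadjusted p below 0.05 was found for 10 of the 67, 6 higher and 4 lower, against 7.93% of all genes (3.97% higher and 3.96% lower). In Dlx5/6::Cre;Ebf1fl/- 1 was called, against 2.39% of all genes, and 21 had an unadjusted p below 0.05, 12 higher and 9 lower, against 15.5% (7.91% higher and 7.62% lower). The gene called was Lrch1, which encodes a leucine-rich repeat protein. It was placed in the netrin list by choice, and a part of it in netrin signalling was not tested. Lrch1 was at 1132, 962.8 and 1071 in Control, 619.8, 808.8 and 959.3 in Islet1Cre;Ebf1fl/-, and 618.5, 653.8 and 671.0 in Dlx5/6::Cre;Ebf1fl/-. It fell by 0.70 ± 0.14 on the log2 scale in Dlx5/6::Cre;Ebf1fl/- (adjusted p = 0.0298 by edgeR), and the call was lost on leaving out Control 1, Control 2, Control 3, Dlx5/6::Cre;Ebf1fl/- 2, Dlx5/6::Cre;Ebf1fl/- 3 or Islet1Cre;Ebf1fl/- 2. The median log2 fold change over the 67 genes was 0.03 in each comparison.

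Some guidance genes lie close to each other. Epha8 and Ephb2 are 93.4 kb apart on chromosome 4, Efna1, Efna3 and Efna4 lie within a cluster on chromosome 3, Robo1 and Robo2 are 846 kb apart on chromosome 16, and Robo3 and Robo4 are 0.554 kb apart on chromosome 9. On chromosome 11, Slit3, Ntn1 and Efnb3 are 8.91, 23.2 and 24.5 Mb from Ebf1. Ntng2 shares 8.87% of its windows of 75 bases with another gene, Efna4 6.16% and Efna3 5.38%, so their counts are less certain, and of the 4 genes called Epha5 shares 0.124% and the others none.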

How the data were processed

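According to the study's methods, polyadenylated RNA was made into stranded libraries and sequenced over 75 bases. The authors mapped reads with STAR 2.4.0k to mm10, removed alignments to more than 1 position and counted with HTSeq 0.5.3, and the deposited values are these counts per Ensembl gene, without normalization. Reads in sequence shared by near-identical genes are therefore missing.

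Genes were named through GENCODE M21 on GRCm38 (44048 of 44886 identifiers matched), and all 40 guidance genes were found. Counts of all 9 libraries were fitted together in edgeR 4.0.16 (R 4.3.3) with filterByExpr (minimum count 10), TMM scaling and the quasi-likelihood test. Adjusted p is Benjamini-Hochberg over 16368 genes, called below 0.05, and the interval covers 95%. Normalized counts are counts over size factors of DESeq2 1.42.0. Levels divide them by kilobases of merged exon. On simulated counts for Dlx5/6::Cre;Ebf1fl/- against Control (16060 genes, 200 changed), 38% of 1.5-fold and 82% of 2-fold changes were recovered, and 8 of 159 calls were false. The changed genes were drawn from those above 1 CPM in Control, and no simulated library was made to stand apart. These rates need not carry over to lower genes or to a group with a library like Dlx5/6::Cre;Ebf1fl/- 1.

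Named were the genes called in any comparison, up to 12 with an unadjusted p below 0.05 or outside the Control range in both mutants, taken by smallest p, and the 2 of highest Control level per role. Others are named only to give ranges or the values of 1 library, and were chosen after their values were seen. The guidance genes, lists and tests were chosen with earlier results of these data known. With 3 samples per group, an exact permutation test cannot go below 0.1. The labels name individual embryos, so p-values are taken over embryos. For Control 3 and Islet1Cre;Ebf1fl/- 3, with counts of both Xist and Y-linked genes, a single embryo as the source is in doubt. No pair of libraries of a group differed by as little as sampling noise.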

Additional observations from a re-analysis of the deposited data

How the results depend on the processing

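The direction of Epha5, Ephb6, Slit2 and Draxin was the same in every alternative fit. The number of guidance genes called in Islet1Cre;Ebf1fl/- (2) was 8 by DESeq2's Wald test and 4 without a filter on low counts, and 1 to 5 over the fits that left out a library. In Dlx5/6::Cre;Ebf1fl/- (4) it was 10 by DESeq2, 9 without a filter, 2 with the 6 samples compared alone (without Slit2 and Draxin), 1 with the code prefix as a covariate or within the prefix (a choice made after seeing the data), and 2 to 6 without 1 library. Over all genes DESeq2 called 394 and 875, where edgeR called 159 and 392, and 311 and 708 without a filter. Calls thus rose over all genes as well with DESeq2 and without a filter. These are numbers of genes, not shares, because the sets of genes tested can differ between these fits. Calls over all genes are not given for the other fits. A changed count of guidance genes or effectors there cannot be told from a general change in calls. DESeq2 added Draxin, Epha6, Epha8, Ntn1, Robo2 and Slit2 in Islet1Cre;Ebf1fl/-, and Efnb2, Efnb3, Epha6, Ephb1, Ntn1 and Unc5d in Dlx5/6::Cre;Ebf1fl/-. Without the 2 libraries with Xist and Y-linked counts, also chosen after seeing the data, there were 2 and 3. Their members changed: in Islet1Cre;Ebf1fl/- Epha5 was lost and Ntn1 gained, and in Dlx5/6::Cre;Ebf1fl/- Draxin and Slit2 were lost and Ntn1 gained. For the effectors, the count in Islet1Cre;Ebf1fl/- (0) was 3 by DESeq2, 1 without a filter, 1 with the 6 samples alone and 0 to 3 without 1 library. In Dlx5/6::Cre;Ebf1fl/- (1) it was 6 by DESeq2, 5 without a filter, 2 with at least 1 CPM in 3 samples, 0 with the prefix as covariate, within it or without the 2 libraries, and 0 to 7 without 1 library. The replicate numbers did not pair the embryos (correlations of deviations between same-numbered embryos from -0.228 to 0.178). With a replicate block 2 and 5 guidance genes and 0 and 4 effectors were called, and Epha6 was the guidance gene added. Values near 0 turned in Islet1Cre;Ebf1fl/-: Unc5d (0.01) was -0.145 with the prefix as covariate or within it, -0.116 without the 2 libraries and -0.138 to 0.195 without 1 library, Epha10 was -0.333 to 0.0795 and Unc5c -0.00823 to 0.347 without 1 library. Over the longest coding transcript, chosen after seeing the data, Ephb1 held 69.7% of the EphB, Efnb3 51.6% of the ephrin-B and Slit1 90.0% of the Slit level in Control. The causes were not tested. Depth was lowest in Islet1Cre;Ebf1fl/- 3 (16.5 M counts), where low genes such as Slit2 and Epha6 are least precise.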
